A study of Homo sapiens with 4 samples.

Results

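DNA repair and checkpoint genes were followed by mRNA sequencing in Jurkat, a human T-cell leukaemia line. The set was defined as 42 gene symbols from base excision, mismatch, homologous recombination and crosslink repair, the checkpoint kinases and the proteins that mark broken DNA in chromatin. A symbol counted when it stood in the deposited table, and 41 of the 42 did, among 25122 genes; RAD51D was not analysed here. The cells carried either a short hairpin RNA against BDH1 (shBDH1, 2 libraries) or a control hairpin (shcontrol, 2 libraries). Both groups are labelled wild type and differ only in the hairpin; the labels give no time after its delivery. Nothing in them tells whether a group's libraries are from different cultures, and the spread behind the p-values may therefore be technical. The study's description also speaks of BDH1-depleted cells given MYC back, which were not analysed here.

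Base excision repair removes a damaged or wrong base with a glycosylase, cuts the empty site with the endonuclease APEX1 and closes the gap with a polymerase and a ligase. Mismatch repair corrects errors left by the replication fork. Homologous recombination rebuilds a broken chromosome from its sister copy, with BRCA2 loading a recombinase brought in through BRCA1 and PALB2, and the Fanconi proteins open DNA crosslinks at stalled forks. ATM and ATR sense breaks and stalled forks and signal through CHEK2 and CHEK1. Proliferating T-lineage cells use all of these during S phase, and developing T cells also make breaks on purpose when they rearrange their receptor genes.

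The libraries held 29453383 and 28777374 reads in genes for shBDH1 and 28681511 and 28797402 for shcontrol. BDH1, the mitochondrial ketone body enzyme targeted by the hairpin, had 1221 and 1412 normalized counts in shBDH1, against 1725 and 1911 in shcontrol. T cell markers were present throughout. The 12 on the list summed to 60280 and 61624 normalized counts in shBDH1 and to 51635 and 51990 in shcontrol. In the test given below 6 of them rose and 1 fell, while 20.3% of all genes tested rose and 20.8% fell. Markers of other cells summed to far less but more in shBDH1: 686 and 666 against 220 and 220 for 3 B cell genes, 309 and 258 against 129 and 132 for 6 NK and cytotoxic genes, 72.7 and 67.4 against 56.5 and 57.2 for 4 myeloid genes, and 1048 and 938 against 727 and 738 for 4 fibroblast and epithelial genes (shBDH1 first). Of these, the myeloid gene LYZ was at 0 in both shBDH1 libraries; the 5 erythroid and megakaryocyte markers were not analysed here. Their part in the results was not tested.

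Of the 40 members tested, 13 fell and 5 rose in shBDH1 (limma on log2(value + 1), adjusted p under 0.05, where the value is the read count divided by the library's size factor). With upper-quartile factors in edgeR 9 fell and 6 rose. The 18 limma calls are 45.0% of the members, against 41.1% called among all 19301 genes tested. By direction, 32.5% of the members fell, against 20.8% of all genes, and 12.5% rose, against 20.3% of all genes. The members are well expressed, with mean values from 799 to 9938 and a median of 2256, against a median of 526 over all genes tested, and well-expressed genes were called more often. Among the 8156 genes with a mean at least as high as the lowest member's, 59.7% were called, 34.0% lower and 25.7% higher. The members' share called was thus close to that of all genes and under that of genes in their range, and the share that fell was near that of genes in their range. All shBDH1 values lay on one side of the shcontrol values for 30 members, or 75.0%, against 69.0% of all genes.

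Changes were small. The members' median log2 fold change was -0.06, against -0.01 for all genes tested, and no member reached a size of 1, a size that 9.35% of all genes reached. Only 7 members, APEX1, XRCC1, PALB2, PMS2, MUTYH, OGG1 and XRCC3, had a log2 fold change of at least 0.3 in size. All of them passed the test and fell. Over all genes tested, called or not, 48.1% reached that size. The shares of 9.35% and 48.1% include genes of lower level than any member tested. The median SE was 0.12 over all genes tested and 0.063 over the members. Shares by size among genes in the members' range were not taken. Of the 18 calls, 10 held when any 1 library was left out: APEX1, XRCC1, MUTYH, OGG1, UNG, PMS2, PALB2, XRCC3, RAD54L and FANCD2. In limma without an intensity-dependent prior on the variance, APEX1 and XRCC1 alone passed the test. In bulk RNA, fewer cells in a given state and less RNA per cell cannot be told apart.

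**Figure D1:**
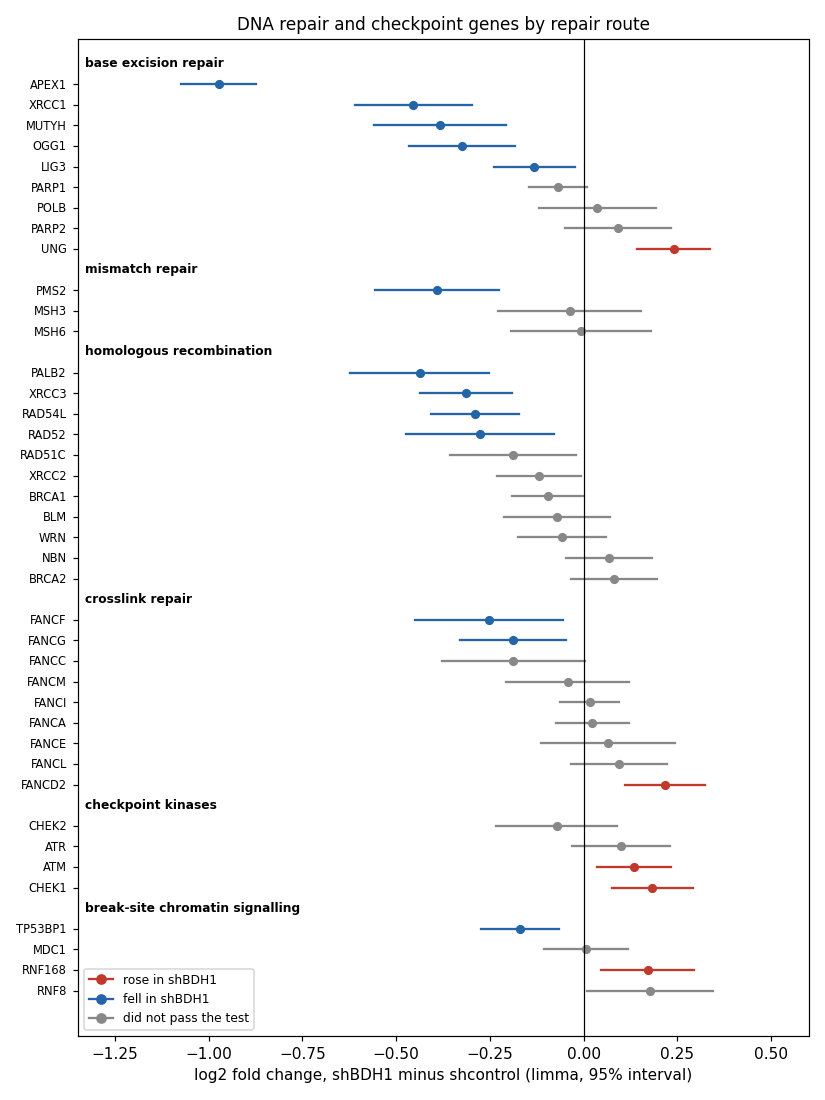
Log2 fold change of each of the 40 members tested (shBDH1 minus shcontrol; limma estimate with 95% interval), grouped by repair route and coloured by call. APEX1 lies at -0.97, well apart from the other members, which lie between -0.45 and 0.24.

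Counts by route are read beside all genes tested, of which 20.8% fell and 20.3% rose. Among genes in the members' range of levels 34.0% fell and 25.7% rose. Base excision repair had 5 of 9 members that fell and 1 that rose, with a median log2 fold change of -0.13. Homologous recombination had 4 of 11 that fell and none that rose, with a median of -0.12. Mismatch repair had 1 of 3 that fell, with a median of -0.04. Crosslink repair had 2 of 9 that fell and 1 that rose, with a median of 0.02. None of the 4 checkpoint kinases fell and 2 rose, with a median of 0.12, and of the 4 break-site chromatin genes 1 fell and 1 rose, with a median of 0.09. The shares of a route that fell were 55.6% (base excision), 36.4% (recombination), 33.3% (mismatch) and 22.2% (crosslink). Those of recombination and mismatch were near the 34.0% of genes in the members' range. The crosslink falls and the LIG3 call in base excision were lost under several settings. No test of the difference between routes was made, and each holds few genes.

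**Figure D2:**
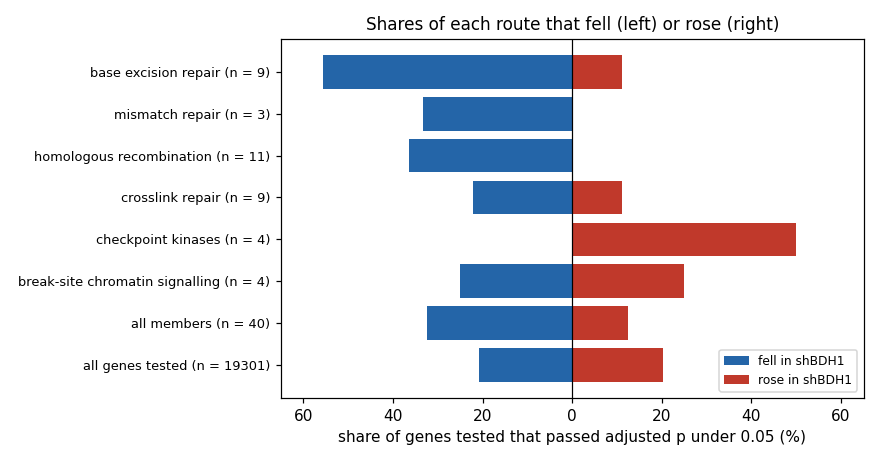
Share of the genes tested in each route that fell (left) or rose (right) in shBDH1 at an adjusted p under 0.05, with all members and all genes tested below. Base excision repair had the highest share that fell, 55.6%, against 20.8% of all genes and 34.0% of genes in the members' range of levels, and 2 of 4 checkpoint kinases rose, against 20.3% of all genes and 25.7% of genes in that range.

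APEX1, the endonuclease that cuts abasic sites and also a redox partner of transcription factors, was the member that changed most. It had 2962 and 2936 normalized counts in shBDH1, against 5733 and 5856 in shcontrol, so the groups lay far apart and the libraries of each group close together. It fell by 49.1% (limma adjusted p = 1.7e-15, log2 fold change -0.97 with an SE of 0.05) and stayed between -0.99 and -0.93 under all other settings run. The gene (ENSG00000100823) lies on chromosome 14 from 20455191 to 20457772 on the plus strand (hg38). Per kilobase of annotated exon, APEX1 had the highest level of all members in shcontrol, 3072 normalized counts per kilobase, ahead of UNG with 1695. In shBDH1 it came after UNG, with 1564 against 2003.

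Promoters are shown for APEX1 and LIG3, base excision genes that fell and hold CACGTG, the E-box that the MYC and MAX pair is known to bind, and for FANCD2, a crosslink repair gene that rose and holds an E2F motif. They were picked by motif and call, and the LIG3 call was at the edge of the threshold. The other members that hold these motifs, most of them without a call, are named after the sequences. MYC had 7453 and 7368 normalized counts in shBDH1, against 14683 and 14804 in shcontrol. The part of MYC in the members' values was not tested. Each sequence is RefSeq's (GRCh38.p14), spans the gene's start and is written 5′ to 3′ on the gene's strand. Capitals mark CACGTG in APEX1 and LIG3 and the E2F motif in FANCD2. They lie at chr14:20454976-20455275 (plus strand), chr17:34980262-34980561 (plus) and chr3:10026187-10026486 (plus).
APEX1: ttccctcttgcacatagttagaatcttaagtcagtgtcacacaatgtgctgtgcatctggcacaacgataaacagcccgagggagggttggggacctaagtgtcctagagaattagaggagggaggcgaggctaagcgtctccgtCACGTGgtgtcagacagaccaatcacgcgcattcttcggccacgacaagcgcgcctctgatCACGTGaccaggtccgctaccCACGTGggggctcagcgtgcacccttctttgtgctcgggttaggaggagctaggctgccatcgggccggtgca
LIG3: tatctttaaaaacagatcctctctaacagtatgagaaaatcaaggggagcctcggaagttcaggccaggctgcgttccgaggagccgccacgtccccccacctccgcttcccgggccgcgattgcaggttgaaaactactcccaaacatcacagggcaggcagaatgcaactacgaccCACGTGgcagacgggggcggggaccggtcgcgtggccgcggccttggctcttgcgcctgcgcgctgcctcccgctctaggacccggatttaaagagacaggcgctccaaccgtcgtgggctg
FANCD2: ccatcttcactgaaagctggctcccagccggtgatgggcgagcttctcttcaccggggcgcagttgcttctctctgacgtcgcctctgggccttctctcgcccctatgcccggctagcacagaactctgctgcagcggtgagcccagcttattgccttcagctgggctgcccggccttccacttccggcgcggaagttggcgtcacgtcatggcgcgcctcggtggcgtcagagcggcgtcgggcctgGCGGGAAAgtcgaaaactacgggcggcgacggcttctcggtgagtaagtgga
APEX1 holds CACGTG at 3 places in this window, as do 28 of 27305 promoters at 3 or more places, or 0.103%. CACGTG stood at least once in 7.4% of all promoters and in 9.7% of those of genes tested. At least 1 copy stood in 5 of the 37 members with a promoter in the table (APEX1, LIG3, BRCA2, FANCC and RAD50), or 13.5%. These were 2 of 13 that fell, none of 5 that rose, 2 of 18 that did not pass the test, and RAD50, which was not tested. TTTNNCGC, a loose form of the E2F motif searched on both strands, stood in 6.9% of all promoters and in 9.8% of those of genes tested. Among the members it stood in 8 of 37, or 21.6%: CHEK2, FANCA, FANCC, FANCD2, MSH3, MSH6, PMS2 and XRCC2. Of these only PMS2 fell and only FANCD2 rose. CCAAT on either strand stood in 35.7% of all promoters and in 36.2% of those of genes tested. Among the members it stood in 20 of 37, or 54.1%: 10 of 13 that fell, 3 of 5 that rose and 7 of 18 that did not pass. A match describes the letters in this window and is not a bound site.

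Among the glycosylases, OGG1 and MUTYH act on the same lesion: OGG1 cuts out 8-oxoguanine, and MUTYH removes the adenine paired with it. OGG1 had 1668 and 1828 normalized counts in shBDH1, against 2297 and 2081 in shcontrol, and fell by 20.1% (log2 fold change -0.32, SE 0.07, limma adjusted p = 0.00034). MUTYH had 835 and 922 in shBDH1, against 1160 and 1129 in shcontrol, and fell by 23.2% (-0.38, SE 0.09, limma adjusted p = 0.00062). For both, each shBDH1 library lay below each shcontrol library. UNG, which removes uracil, went the other way. It had 5054 and 5227 in shBDH1, against 4339 and 4362 in shcontrol, 18.2% more (0.24, SE 0.05, limma adjusted p = 0.00014), and was the member with the largest rise.

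After the cut, XRCC1 holds the polymerase and ligase at the site. XRCC1 had 1076 and 1072 normalized counts in shBDH1, against 1472 and 1471 in shcontrol, and fell by 27.0% (log2 fold change -0.45, SE 0.08, limma adjusted p = 1.7e-05). The libraries of each group nearly coincided. LIG3, the ligase bound by XRCC1, averaged 3260 ± 9.11 in shBDH1 and 3571 ± 53.5 in shcontrol (SD, n = 2 each) and fell by 8.72%, at the edge of the threshold (-0.13, SE 0.05, limma adjusted p = 0.045). The LIG3 call was lost without any 1 of the 4 libraries (limma adjusted p from 0.077 to 0.24). With all libraries kept it was lost in edgeR with TMM factors (adjusted p = 0.052), upper-quartile factors (0.18) or library totals (0.0996), in DESeq2 (0.11) and in limma with a minimum mean of 1 (0.061).

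The other base excision members did not pass the test. PARP1, which detects strand breaks, averaged 9703 ± 10.8 normalized counts in shBDH1 and 10174 ± 94.8 in shcontrol, the highest raw level of all members (SD, n = 2 each; log2 fold change -0.07, 95% interval -0.15 to 0.01). Its relative PARP2 was at 0.09 (interval -0.05 to 0.23). POLB, the gap-filling polymerase, was at 0.04 (interval -0.12 to 0.19). The 9 genes together had 27632 and 28060 normalized counts in shBDH1, against 31624 and 31670 in shcontrol; without APEX1 these sums were 24669 and 25124 against 25891 and 25813, and the median log2 fold change of the other 8 was -0.10.

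Mismatch repair rests on MutS dimers that find the mismatch, in which MSH6 or MSH3 is the variable subunit, and on MutL dimers, to which PMS2 brings the nuclease. MSH6 had 904 and 834 normalized counts in shBDH1, against 845 and 899 in shcontrol, and MSH3 had 779 and 849 in shBDH1, against 852 and 817 in shcontrol. The groups overlapped for both, and the 95% intervals of their log2 fold changes ran from -0.19 to 0.18 for MSH6 and from -0.23 to 0.15 for MSH3. PMS2 had 1018 and 1036 in shBDH1, against 1416 and 1280 in shcontrol, and fell by 23.8% (log2 fold change -0.39, SE 0.08, limma adjusted p = 0.00025). PMS2 has many near-identical pseudogene copies, so how reads were shared among them is uncertain. Of 9 such copies in the table, PMS2P4 and PMS2P3 fell, with log2 fold changes of -0.73 and -0.42, while PMS2CL was at -0.12 and PMS2P1 at -0.02 without passing the test.

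**Figure D3:**
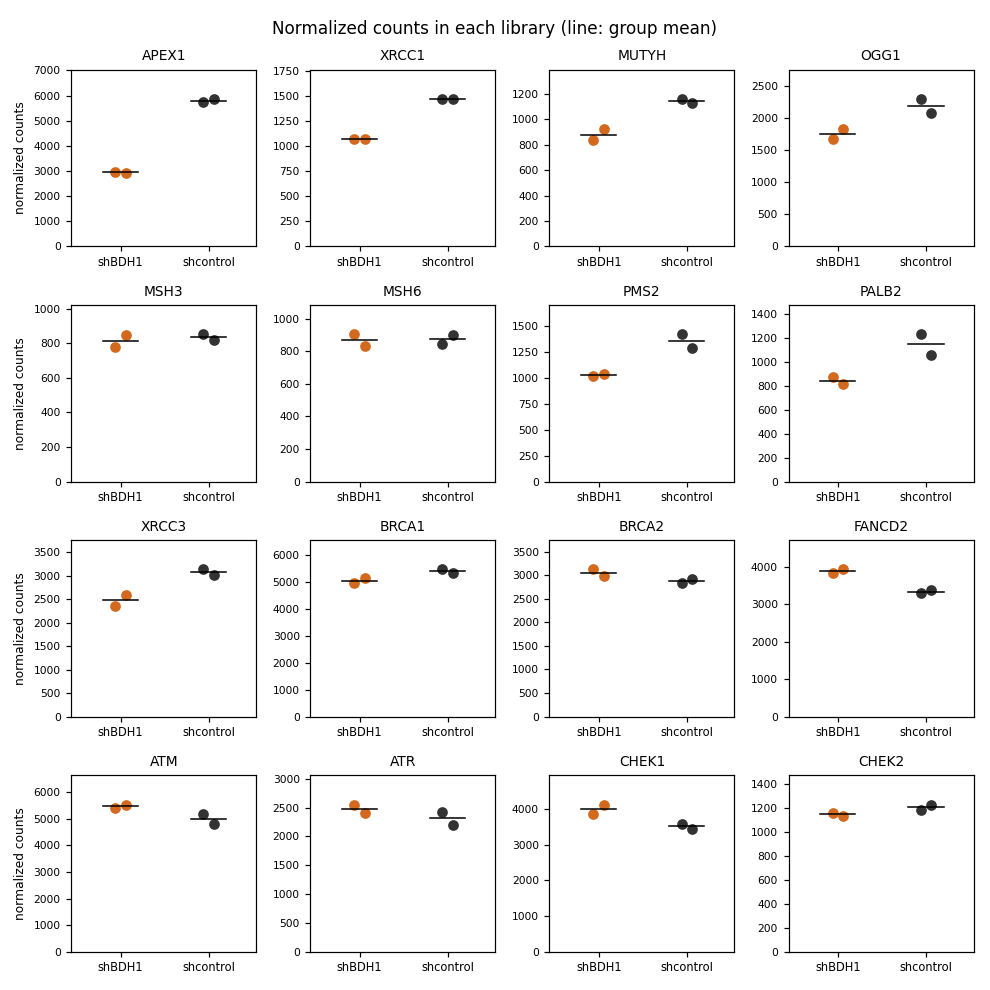
Normalized counts in each library for 16 members, with shBDH1 left and shcontrol right in each panel, axes from 0 and lines at the group means. APEX1, XRCC1, MUTYH, OGG1, PMS2, PALB2 and XRCC3 lie lower in both shBDH1 libraries, while MSH3, MSH6 and ATR overlap between groups.

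In homologous recombination PALB2, XRCC3, RAD54L and RAD52 fell, while BRCA1 and BRCA2 did not pass the test. PALB2, which joins BRCA1 to BRCA2, had 873 and 815 normalized counts in shBDH1, against 1231 and 1060 in shcontrol, and fell by 26.4% (log2 fold change -0.44, SE 0.09, limma adjusted p = 0.00024). BRCA1 had 4959 and 5174 in shBDH1, against 5483 and 5337 in shcontrol (-0.09, 95% interval -0.19 to 0.00, limma adjusted p = 0.11). BRCA2 had 3122 and 2972 in shBDH1, against 2838 and 2922 in shcontrol (0.08, interval -0.03 to 0.20). For BRCA1 both shBDH1 libraries lay just below the shcontrol libraries, and for BRCA2 just above. Without shBDH1 replicate 2, BRCA1 (limma adjusted p = 0.0497), RAD51C (0.012) and XRCC2 (0.026) passed the test as lower.

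XRCC3, a paralog of the recombinase, had 2359 and 2595 normalized counts in shBDH1, against 3132 and 3022 in shcontrol, and fell by 19.5% (log2 fold change -0.31, SE 0.06, limma adjusted p = 8.7e-05). RAD54L, the motor that drives strand exchange, averaged 2661 ± 142 in shBDH1 and 3253 ± 48.4 in shcontrol and fell by 18.2% (SD, n = 2 each; limma adjusted p = 0.00014). RAD52, an annealing protein, averaged 722 ± 57.2 in shBDH1 and 875 ± 46.3 in shcontrol and fell by 17.5% (SD, n = 2 each; limma adjusted p = 0.021). RAD52 was the lowest member tested, and its call was lost without shBDH1 replicate 2 (limma adjusted p = 0.18) or shcontrol replicate 1 (0.16). It was also lost with all libraries in DESeq2 (adjusted p = 0.079) and in edgeR with upper-quartile factors (adjusted p = 0.059). The paralogs RAD51C and XRCC2 had log2 fold changes of -0.19 and -0.12 (limma adjusted p = 0.069 and 0.082). The helicases BLM and WRN were at -0.07 and -0.06, and the break sensor NBN was at 0.07; none of these passed the test.

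RAD50, the coiled-coil partner of NBN, could not be assessed. It had 4.91 and 11.1 normalized counts in shBDH1 and 6.16 and 2.04 in shcontrol, under the minimum mean of 10 set for the test. In GENCODE 29 another gene model on the same strand, AC116366.3, covers 79.7% of RAD50's exon bases. That model had a mean of 287 in shBDH1 and 147 in shcontrol and rose (log2 fold change 0.97, limma adjusted p = 8.4e-05). Whether reads common to both models were dropped in counting was not tested, and the low value may not measure RAD50 expression.

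Among the Fanconi genes, the core complex puts ubiquitin on the pair FANCD2 and FANCI. FANCD2 had 3830 and 3932 normalized counts in shBDH1, against 3298 and 3382 in shcontrol, 16.2% more (log2 fold change 0.22, SE 0.05, limma adjusted p = 0.0012). Its partner FANCI averaged 9365 ± 69.9 in shBDH1 and 9261 ± 82.6 in shcontrol (SD, n = 2 each), with overlapping groups and a 95% interval of -0.06 to 0.10. The ligase subunit FANCL was at 0.09 without passing the test.

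Of the core subunits, FANCF averaged 752 ± 84.6 normalized counts in shBDH1 and 892 ± 7.21 in shcontrol (SD, n = 2 each) and fell by 15.8% (limma adjusted p = 0.038), and FANCG averaged 1532 ± 63.5 in shBDH1 and 1745 ± 15.2 in shcontrol and fell by 12.2% (SD, n = 2 each; limma adjusted p = 0.03). Both calls were lost without shBDH1 replicate 1 (limma adjusted p = 0.37 and 0.17), shcontrol replicate 1 (0.089 and 0.13) or shcontrol replicate 2 (0.12 and 0.09). Neither passed in DESeq2 (adjusted p = 0.13 and 0.092) or in edgeR with upper-quartile factors (0.098 and 0.11) or library totals (0.068 and 0.065), and FANCF did not pass in limma with a minimum mean of 1 (0.0705). FANCA and FANCE were at 0.02 and 0.07, FANCC was at -0.19 and the anchor helicase FANCM at -0.04, none of them past the test; FANCC passed as lower without shBDH1 replicate 1 (limma adjusted p = 0.025).

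The checkpoint kinases were the route in which more genes rose than fell. ATM, the kinase activated by breaks, had 5404 and 5528 normalized counts in shBDH1, against 5165 and 4799 in shcontrol, 9.71% more (log2 fold change 0.13, SE 0.05, limma adjusted p = 0.025). CHEK1, which carries the signal of ATR, had 3864 and 4130 in shBDH1, against 3580 and 3456 in shcontrol, 13.6% more (0.18, SE 0.05, limma adjusted p = 0.0059). The groups did not overlap for either gene. Both calls were lost without shBDH1 replicate 2 (limma adjusted p = 0.084 for ATM and 0.07 for CHEK1) or shcontrol replicate 2 (0.37 and 0.076). The ATM call was also lost in limma with a minimum mean of 1 (adjusted p = 0.053).

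ATR, the kinase of stalled forks, had 2555 and 2404 normalized counts in shBDH1, against 2427 and 2203 in shcontrol, with overlapping groups (log2 fold change 0.10, 95% interval -0.03 to 0.23). CHEK2, the effector of ATM, had 1155 and 1132 in shBDH1, against 1179 and 1225 in shcontrol, and both shBDH1 libraries lay slightly below (-0.07, interval -0.23 to 0.09). Neither passed the test.

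At break sites, RNF8 and RNF168 add ubiquitin to histones, and MDC1 recruits RNF8. TP53BP1 binds the marked chromatin and limits resection. RNF168 averaged 2675 ± 82.0 normalized counts in shBDH1 and 2377 ± 124 in shcontrol, 12.5% more (SD, n = 2 each; limma adjusted p = 0.024); the call was lost without shBDH1 replicate 2 (0.13) or shcontrol replicate 1 (0.27). TP53BP1 averaged 4223 ± 97.6 in shBDH1 and 4757 ± 276 in shcontrol and fell by 11.2% (SD, n = 2 each; limma adjusted p = 0.0078); that call was lost without shcontrol replicate 1 (0.22). RNF8 had a log2 fold change of 0.18 (limma adjusted p = 0.084) and passed without shcontrol replicate 2 (0.046). MDC1 was at 0.01 with overlapping groups.

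Many members share exon bases with a neighbour on the other strand, and the strand setting of the counting is not given, so reads of such pairs may be shared. This holds for 26 members, of which 13 were called and 8 of those share at least 10% of their exon bases. RAD50, which was not tested, is among the 26. Over all members tested 45.0% were called, against 41.1% of all genes and 59.7% of genes in their range of levels. XRCC3 shares 76.7% of its exon bases with KLC1, which fell (log2 fold change -0.14). TP53BP1 shares 28.7% with TUBGCP4, which fell by 0.41 on the log2 scale, more than TP53BP1's -0.17, and FANCF shares 11.3% with GAS2, which fell by 0.56. OGG1 shares 25.0% with CAMK1 (0.23, not past the test) and 4.08% with TADA3, which fell by 0.53. RAD54L shares 25.1% with LRRC41 (-0.02), LIG3 29.1% with RFFL (-0.12) and MUTYH 14.1% with TOE1 (-0.03), none of these partners past the test. XRCC1 overlaps L34079.2 and L34079.3 on the other strand and L34079.1 on its own, with log2 fold changes of -0.50, -0.49 and -0.66, of which L34079.2 and L34079.1 passed the test. APEX1 shares 2.86% of its exon bases with PIP4P1, which rose by 0.43. FANCD2 shares 3.12% with FANCD2OS and ATM 0.597% with NPAT, and both partners rose, by 0.25 and 0.26.

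**Figure D4:**
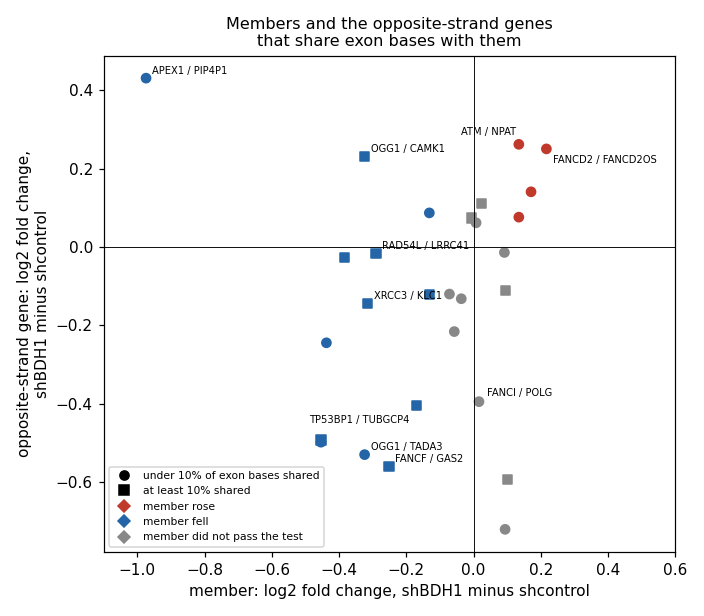
Log2 fold change (shBDH1 minus shcontrol) of 23 members against that of the opposite-strand genes that share exon bases with them, 28 pairs in all; squares mark pairs that share at least 10% of the member's exon bases and colours give the member's call. APEX1 fell by 0.97 while PIP4P1 rose by 0.43, and TP53BP1, FANCF and XRCC3 lie below 0 together with their partners.

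At the median, the members that fell had shorter gene spans and more GC in their transcripts than the other members, with wide overlap. Their median span was 30.8 kb, against 51.1 kb for the 5 that rose and 71.6 kb for the 22 that did not pass the test. The median GC of the longest transcript was 50.3%, against 44.0% and 42.1%. Spans ran from 2.58 to 107.67 kb among members that fell and from 13.42 to 146.62 kb among those that rose. GC ran from 42.82% to 63.79% and from 39.08% to 50.72%. Over all genes tested, those that fell also had shorter spans and more GC than those that rose, with medians of 23.6 kb and 51.4% against 47.3 kb and 46.9%. Genes that did not pass had a median span of 20.2 kb, the shortest there, unlike among the members, and a GC of 48.5%. Over the 40 members the log2 fold change had a Spearman correlation of -0.45 with GC and 0.29 with span, and over the 19238 genes tested that have these values of -0.08 and 0.15. The points share the same 4 libraries, and the part of GC or span in the calls was not tested.

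Other genes of these pathways, taken from wider lists, moved in both directions. For the counts that follow, 20.8% of all genes tested fell and 20.3% rose. Among genes in the members' range of levels, where most of the listed genes lie, 34.0% fell and 25.7% rose. Of 15 other base excision genes tested, 3 fell and 1 rose; APTX, which frees stalled ligation ends, had 1060 and 994 normalized counts in shBDH1, against 1497 and 1655 in shcontrol (log2 fold change -0.62, limma adjusted p = 2.6e-07). APLF fell by 0.45 and POLE4 rose by 0.54. Of 11 other mismatch genes, 3 fell and 2 rose, among them the nuclease EXO1 (-0.31), the clamp loader subunit RFC3 (-0.18) and the MutL protein MLH3 (1.57, at a mean of 59.6 in shBDH1 and 21.0 in shcontrol). Of 22 other recombination genes, 9 fell and 4 rose; TOP3A, the topoisomerase that works with BLM, fell by 0.53, the nuclease MRE11 fell by 0.30 and the resolvase MUS81 rose by 0.44.

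Crosslink repair held falls close in size to that of APEX1. USP1, which removes the ubiquitin from FANCD2, had 6632 and 6832 normalized counts in shBDH1, against 11876 and 12328 in shcontrol (log2 fold change -0.85, SE 0.04, limma adjusted p = 3.8e-16). FAAP100, a subunit of the core complex, had 1315 and 1393 in shBDH1, against 2542 and 2612 in shcontrol (-0.93, SE 0.07, limma adjusted p = 2.7e-12). Both groups were far apart for each gene. The nuclease DCLRE1A rose by 0.49. In all, 4 of 16 other crosslink genes fell and 4 rose.

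Of 18 other checkpoint genes, 7 fell and 3 rose. CDC25A, the phosphatase that CHEK1 marks for destruction, had 5135 and 4985 normalized counts in shBDH1, against 3392 and 3437 in shcontrol (log2 fold change 0.57, limma adjusted p = 1.8e-10), and WEE1, the kinase that opposes it, had 3939 and 3446 in shBDH1, against 2642 and 2659 in shcontrol (0.48, limma adjusted p = 1.9e-07). TIMELESS, which protects the fork, fell by 0.48. Of 14 other break-site genes, 5 fell and 2 rose; H2AFX, the histone marked by ATM, fell by 0.54, the acetyltransferase KAT5 fell by 0.37 and the kinase DYRK1A rose by 0.41.

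Of the routes outside the set, nucleotide excision repair leaned lower, with 14 genes below 0 and 3 above, and end joining moved in both directions. Of 17 nucleotide excision genes, 9 fell and 1 rose, with a median log2 fold change of -0.22; GTF2H3 fell by 0.55 and DDB1 by 0.35. Of 9 end-joining genes, 4 fell and 3 rose; DCLRE1C and XRCC6 fell by 0.33 and 0.26 and LIG4 rose by 0.32. Genes of the cell cycle, in whose S phase many repair genes are transcribed, were called lower more often than higher. So were all genes in the members' range of levels, of which 34.0% fell and 25.7% rose. Of 25 S phase genes 8 fell and 5 rose (median -0.01), near those shares. GINS1 was at -0.76, CDCA7 at -0.34 and MCM7 at -0.26. Of 24 G2/M genes 11 fell and 3 rose (median -0.05), with FOXM1 at -0.99, CENPF at -0.45 and TPX2 at -0.41. The G2/M genes summed to 109618 and 110647 normalized counts in shBDH1, against 122995 and 122647 in shcontrol, and the S phase genes to 137353 and 137737 in shBDH1, against 143367 and 142995 in shcontrol. The part of cell cycle phase in the members' values was not tested.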

How the data were processed

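The authors deposited 1 table of normalized signal values, gene read counts that had been divided by 1 size factor per library, per gene and library. This was read from the values: all were whole multiples of a step per library (100.0% within 0.01 reads), although the table is named raw counts. The size factors were 1.0174 and 0.9944 for shBDH1 and 0.9739 and 0.9785 for shcontrol. The submitters' processing notes name hg38, FastQC 0.11.9 and HISAT2 2.2.1; no source used here names the counter, the annotation or the strand setting.

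Genes with a mean of at least 10 were tested with limma 3.58.1 (R 4.3.3) on log2(value + 1), shBDH1 minus shcontrol, with an intensity-dependent prior; fold changes on this scale understate changes of low genes. P-values were adjusted by Benjamini-Hochberg over 19301 genes, with a threshold of 0.05. edgeR 4.0.16, limma-voom and DESeq2 1.42.0 on the recovered reads, other scalings, filters, pseudocounts, a block for the replicate number and leaving out each library were alternatives. The members and lists were chosen with earlier results of these data known. Values in every library are given for members that passed with a log2 fold change of at least 0.3 in size, for the kinases, BRCA1, BRCA2, MSH3, MSH6, PMS2 and FANCD2, and, chosen after their values were seen, for UNG and RAD50. Of each wider list the 3 genes with the smallest p are named, except 1 that is not reported here. Exon length, overlap and position are from GENCODE 29; 25010 of 25122 gene IDs matched. On simulated reads with 50 genes changed per fold, limma found 18 changed 1.25-fold, 37 changed 1.5-fold and 43 changed 2-fold. There were 19243 genes tested and 3 calls among unchanged genes. The changed genes were drawn from all genes tested, and the same noise setting was used for every gene. These counts therefore do not give the recovery for the members. The libraries of a group differed beyond sampling noise (chi-square per degree of freedom 5.13 for shBDH1 and 3.72 for shcontrol). Python was 3.11.15, with pandas 2.3.3, scipy 1.17.1 and matplotlib 3.10.9.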

Additional observations from a re-analysis of the deposited data

How the results depend on the processing

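Over the other settings, counts over all genes moved by more than 1.5 times only without the intensity-dependent prior, to 1598 higher and 1246 lower, where 0 members rose and 2 fell; by route, 2 fell in base excision and 0 in mismatch, recombination, crosslink and break-site repair, and 0 rose in any route. At an adjusted p under 0.01, 3 members rose, 1 a checkpoint kinase and 0 break-site genes, and 0 crosslink members fell. Crosslink falls were also 0 with DESeq2, upper-quartile factors and library totals and 1 with a minimum mean of 1, where 1 checkpoint kinase rose; with upper-quartile factors 2 break-site genes rose. With 1 library left out, members that rose ranged from 2 to 5 and members that fell from 8 to 14; crosslink falls ranged from 0 to 2, checkpoint rises from 0 to 2, break-site rises from 0 to 2 and break-site falls from 0 to 1. A lone library is then assumed to vary like the other group. The cause was not tested. The log2 fold change of some members without a call changed sign. MSH6 was at 0.0015 with edgeR and TMM factors, 0.0019 with DESeq2, 0.0014 with limma-voom, 0.039 with upper-quartile factors and 0.019 with library totals, and with 1 library left out it ranged from -0.064 to 0.053. With upper-quartile factors MSH3 was at 0.0078 and FANCM at 0.00057. With 1 library left out, MSH3 ranged from -0.098 to 0.025, POLB from -0.010 to 0.083, BLM from -0.15 to 0.0073, FANCE from -0.017 to 0.15 and MDC1 from -0.062 to 0.077. With the replicate number as a block, 5 members rose and 14 fell, RAD51C (limma adjusted p = 0.045) being the gain; deviations of same-numbered libraries were uncorrelated (0.0013), so the numbers are not taken to pair libraries. The members' median standard error was 0.063 on the log2 scale.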
